A study of Homo sapiens with 8 samples.

Results

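Cholesterol and fatty acid synthesis was followed through 31 genes in 8 RNA-seq libraries of a leukemia cell line that had become resistant to BCR-ABL inhibitors. The genes were taken as the rows of the deposited table whose symbol equals a listed member, and each symbol had a single row. They make up 31 of 31402 entries in the table and 31 of the 11843 entries that were tested. By role, 8 belong to the mevalonate pathway, 9 make squalene (FDFT1) or act between it and cholesterol, 9 make or modify fatty acids and glycerolipids, and 5 regulate the pathway or move sterol.

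The line is KCL-22, derived from chronic myeloid leukemia in blast crisis and carrying the BCR-ABL fusion kinase. All 8 libraries came from cells that carry ClonTracer, a pool of DNA barcodes delivered by a virus so that the progeny of each founding cell can be recognised. The vehicle library (n = 1) came from a polyclonal population kept in 0.1% DMSO for 7 days. Selection with 2.5 µM imatinib (27 days), 0.3 µM nilotinib (27 days) and 2.5 µM GNF-2 (21 days) gave the resistant populations, with 1 library for each compound. GNF-2 binds ABL at an allosteric site, while imatinib and nilotinib occupy its catalytic site. Each of the other 4 libraries is 1 clone, sorted as a single cell from a resistant population and expanded. Clones 1 and 2 came from GNF-2-resistant cells, are resistant to GNF-2 at 2.5 µM and had not met a catalytic inhibitor. Clone 3 came from imatinib-resistant cells, is resistant to imatinib at 2.5 µM and nilotinib at 0.3 µM, and had not met an allosteric inhibitor. Clone 4 came from GNF-2-resistant cells, had not met a catalytic inhibitor and is resistant to all 3 compounds at those doses. The catalytic-resistant group is therefore the imatinib and nilotinib populations with Clone 3 (n = 3), the GNF-2-resistant group is the GNF-2 population with Clones 1 and 2 (n = 3), and vehicle and Clone 4 stand alone. Whether a compound was present when the clones were harvested is not stated in the labels. No source used here describes the libraries of a group as separate cultures, so p-values measure only the spread between these samples.

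Cells build cholesterol and fatty acids from acetyl-CoA. The mevalonate pathway turns acetyl-CoA into isoprenoid units and then squalene, which a second set of enzymes closes and trims to cholesterol, while acetyl-CoA carboxylase and fatty acid synthase make palmitate that elongases and desaturases extend and unsaturate. Both branches are controlled by the SREBP transcription factors, encoded by SREBF1 and SREBF2: when membrane sterol is low, SCAP escorts them from the endoplasmic reticulum to be cut and released, and INSIG proteins hold the complex back when sterol is high. Dividing leukemia cells use both branches to make membrane.

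Values are FPKM, which scale the fragments of a gene to its transcript length and to the size of the library. A rough estimate of the fragments per library used 666 intronless genes. The lowest clear peak among their small values of FPKM times length was taken as 1 fragment. This gave between 18800000 (GNF-2 population) and 42200000 (Clone 1). At an FPKM of 1, a transcript 2 kilobases long would then have received about 37.7 to 84.3 fragments. Of 10 markers of the KCL-22 lineage, 8 had a mean FPKM of at least 1, and the 10 summed to between 392.5 and 643 across libraries. GATA2, ABL1 and BCR had the highest means (202, 85.3 and 84.4). Other markers were not held in every library. SPI1 was 29.9 in vehicle and 0 in Clones 3 and 4. GATA1 was 8.55 in Clone 2 and 0 in Clone 3, where CD33 was 0.157. PTPRC ran from 88.0 in vehicle down to 16.5 in Clone 4, and TFRC from 12.7 in the nilotinib population up to 137 in Clone 4. KIT and MPO, also on that list, were near 0. Markers of tissues known for lipid synthesis were near 0, with summed levels of at most 0.0929 for 5 adipocyte genes (ADIPOQ and CIDEC at 0 in every library) and at most 0.850 for 5 hepatocyte genes (APOB and TTR at 0). Of 6 fibroblast genes DCN was at 0 and the sum reached 7.81 (Clone 2), and 6 lymphocyte genes summed to between 22.6 and 111.5, with MS4A1 at 0 and CD3D and CD79A the ones with a mean of at least 1.

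Promoter sequence was searched for fixed patterns of letters that SREBP and its partner factors are known to bind. RefSeq (GRCh38.p14) gave promoters for 27 of the members, 40 promoters in all, and 250 bases upstream of each start were searched on both strands. No promoter was available for FASN, SQLE, FDFT1 and ACAT2, so these members were not searched. The sterol regulatory element TCACNCCAC was found in 1 of the 40 promoters (2.5%), that of SREBF2, against 0.883% of 35116 promoters of all genes. CCAAT, the letters bound by NF-Y, were present in 22 of the 40 (55.0%), against 32.0% of all promoters. GGGCGG, the letters bound by SP1, were present in 34 (85.0%), against 42.6%, and the E-box CACGTG in 2 (5.0%), against 6.34%. The shares of all promoters were not limited to genes expressed in these libraries, so members were not compared with other expressed genes. A match is a description of the letters, not a measured binding site. Only these exact patterns were sought, so a sterol element with other letters, or beyond the 250 bases, would have been missed. A member without a match may therefore still carry such an element. The stretches below are shown because SREBF2 is the regulator itself, and HMGCS1, LSS and STARD4 are the mevalonate, sterol and transport genes with the widest range over the libraries. Capitals mark the sterol regulatory element (SREBF2) and CCAAT or its complement ATTGG.
SREBF2, chr22:41832947-41833028, plus strand: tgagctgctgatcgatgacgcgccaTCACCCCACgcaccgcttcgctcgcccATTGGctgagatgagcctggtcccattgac
HMGCS1, chr5:43313483-43313592, minus strand: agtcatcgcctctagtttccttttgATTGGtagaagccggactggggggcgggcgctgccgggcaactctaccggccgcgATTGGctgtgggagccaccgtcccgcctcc
LSS, chr21:46228895-46228949, minus strand: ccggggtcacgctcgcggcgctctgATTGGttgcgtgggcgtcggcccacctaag
STARD4, chr5:111512636-111512721, minus strand: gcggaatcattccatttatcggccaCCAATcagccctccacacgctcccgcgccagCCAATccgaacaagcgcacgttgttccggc
In SREBF2 the sterol element starts 133 bases before the transcription start and the NF-Y box follows 18 bases after it. HMGCS1 and STARD4 each hold a pair of NF-Y boxes in the window, and LSS holds 1. HMGCS1 has another promoter with no NF-Y box in the 250 bases, and the promoter with the most matches is the one shown.

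All 31 genes were expressed in every library, between an FPKM of 7.18 (HSD17B7 in Clone 4) and 675 (FDFT1 in the imatinib population). The highest library exceeded the lowest by 1.18-fold for GGPS1 up to 5.15-fold for STARD4, with a median of 1.91-fold, against 2.04-fold over all tested genes. The members did not share an order of libraries. Vehicle was below all 7 resistant libraries for 9 of the 31 members, against 19.8% of all tested genes. These were FASN and ACACA of fatty acid synthesis, SQLE, LSS and TM7SF2 of the sterol steps, PMVK of the mevalonate pathway and the regulators SREBF1, SREBF2 and SCAP. Vehicle was above all 7 for 3 members, STARD4, HSD17B7 and EBP, against 13.9% of all tested genes. All 3 rest on near ties with 1 vehicle library. STARD4 had 97.8 in vehicle against 97.5 in the imatinib population. HSD17B7 had 17.5 against 17.3 in the GNF-2 population, and EBP had 85.6 against 85.4 in Clone 2.

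**Figure D1:**
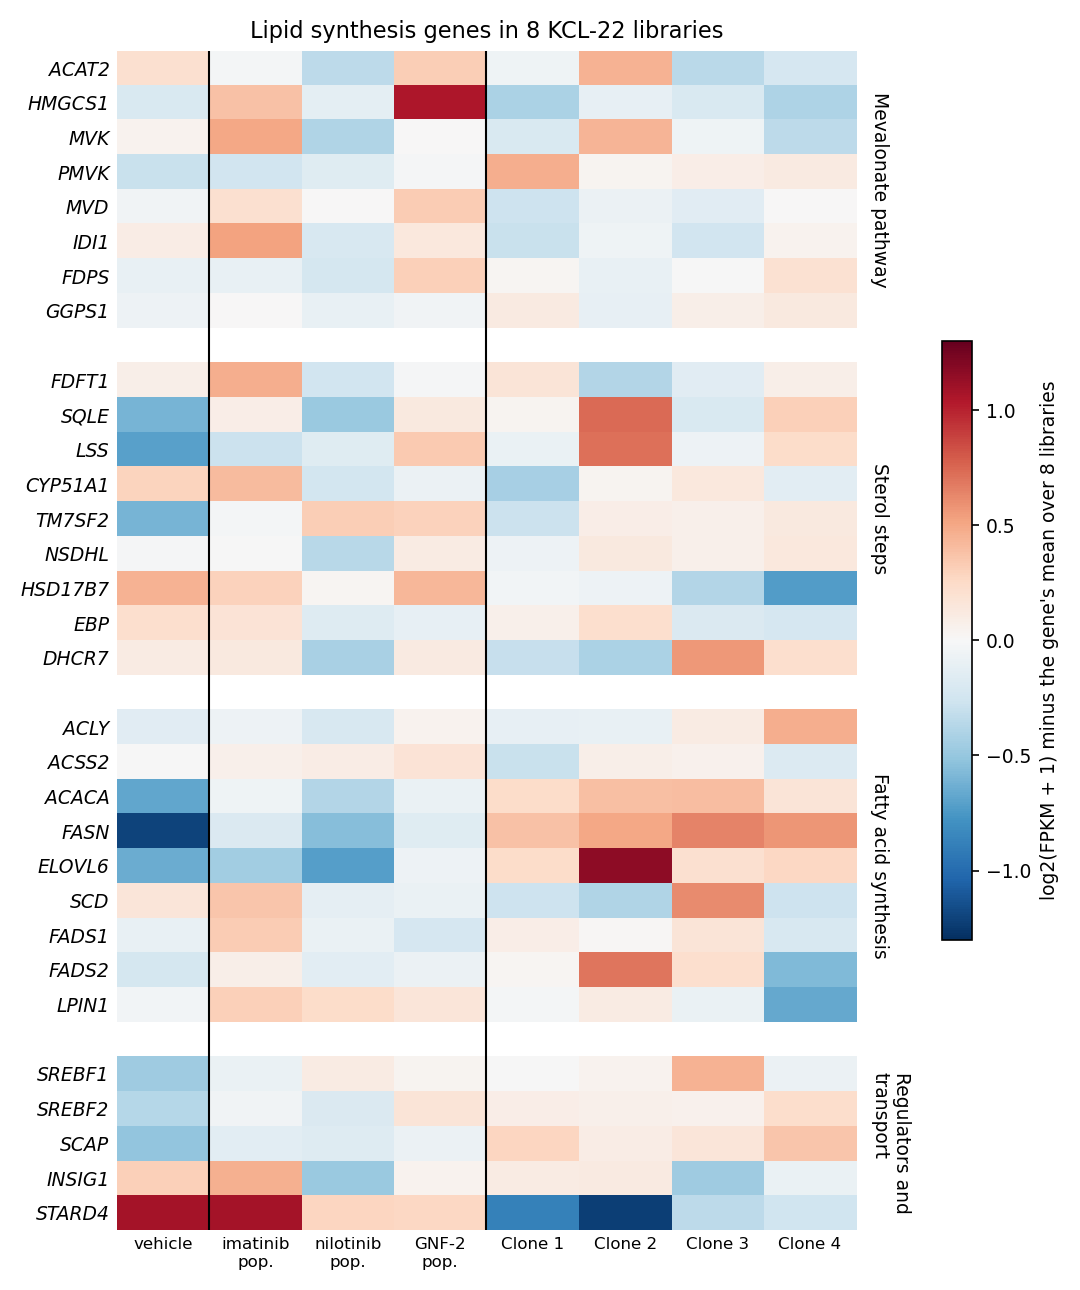
Colour gives log2(FPKM + 1) of each gene minus its mean over the 8 libraries (scale from -1.3 to 1.3), with genes in rows grouped by role and libraries in columns; lines separate vehicle, the resistant populations and the clones. FASN and ACACA turn from blue in vehicle to red in the clones, STARD4 turns the other way, and most genes of the sterol steps are blue in the nilotinib population.

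Fatty acid synthesis held the clearest difference among the members. FASN, the synthase that builds palmitate (chromosome 17, 80036213 to 80056106, GRCh37), stood at an FPKM of 31.6 in vehicle and at 65.0, 50.4 and 66.6 in the imatinib, nilotinib and GNF-2 populations. In Clones 1, 2, 3 and 4 FASN had 97.3, 106, 117 and 111. Each clone lay above each resistant population, and each population lay above vehicle. FASN rose in the clones (108 ± 8.17, SD, n = 4) against the resistant populations (60.7 ± 8.90, n = 3), by 0.82 on the log2 scale (SE 0.13, limma adjusted p = 0.0166). It was the single member called in that comparison, in which 7.46% of all tested genes were called. The call was lost without the imatinib population (adjusted p = 0.0581), without the nilotinib population (0.0694), with the resistance group as a covariate (0.0803), with no filter on low values (0.0521) or with the population of origin as a block (log2 difference 0.72, adjusted p = 0.122), while the difference stayed between 0.70 and 0.90 with any library left out.

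ACACA, acetyl-CoA carboxylase, which makes the malonyl-CoA that FASN uses, followed the same order without passing the test. Its FPKM was 9.62 in vehicle, 15.3, 12.0 and 14.9 in the imatinib, nilotinib and GNF-2 populations, and 19.0, 21.1, 21.4 and 18.0 in Clones 1 to 4. Clones and populations did not overlap (log2 difference 0.47, SE 0.13, 95% interval 0.17 to 0.78, adjusted p = 0.0688). ELOVL6, which elongates palmitate, had 12.3 in vehicle, 14.2, 11.6 and 18.8 in the populations, and 23.5, 45.6, 23.1 and 23.9 in Clones 1 to 4. Clone 2 stood apart from the others, and each clone again lay above every population (0.88, SE 0.27, interval 0.25 to 1.52, adjusted p = 0.0897). With 1 library left out the ELOVL6 difference ran from 0.65 to 1.05.

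SCD, the desaturase that makes oleate, was among the most abundant members and did not follow FASN. Its FPKM was 399 in vehicle, 458, 330.3 and 338 in the imatinib, nilotinib and GNF-2 populations, and 297, 271, 548 and 297 in Clones 1 to 4. The highest values were in Clone 3 and its population of origin, the imatinib population. FADS2, the delta-6 desaturase, had 231 in vehicle, 286, 246 and 257 in the populations, and 275, 441, 316 and 181 in Clones 1 to 4, so that the clones held both the highest and the lowest value. FADS1, the delta-5 desaturase, ranged from 79.5 to 117. The FADS1 and FADS2 spans overlap in the deposited table, so fragments in the shared stretch could have been given to either. ACLY, which makes cytosolic acetyl-CoA from citrate, ranged from 57.9 to 93.6, highest in Clone 4. ACSS2, which makes it from acetate, ranged from 9.11 to 13.0. LPIN1, a phosphatidate phosphatase, had 15.6 in vehicle, 18.1 to 20.2 in the populations and 9.79 (Clone 4) to 17.4 in the clones, which did not overlap the populations (-0.40, SE 0.19, interval -0.85 to 0.04, adjusted p = 0.221). Without Clone 4 that difference was -0.24.

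**Figure D2:**
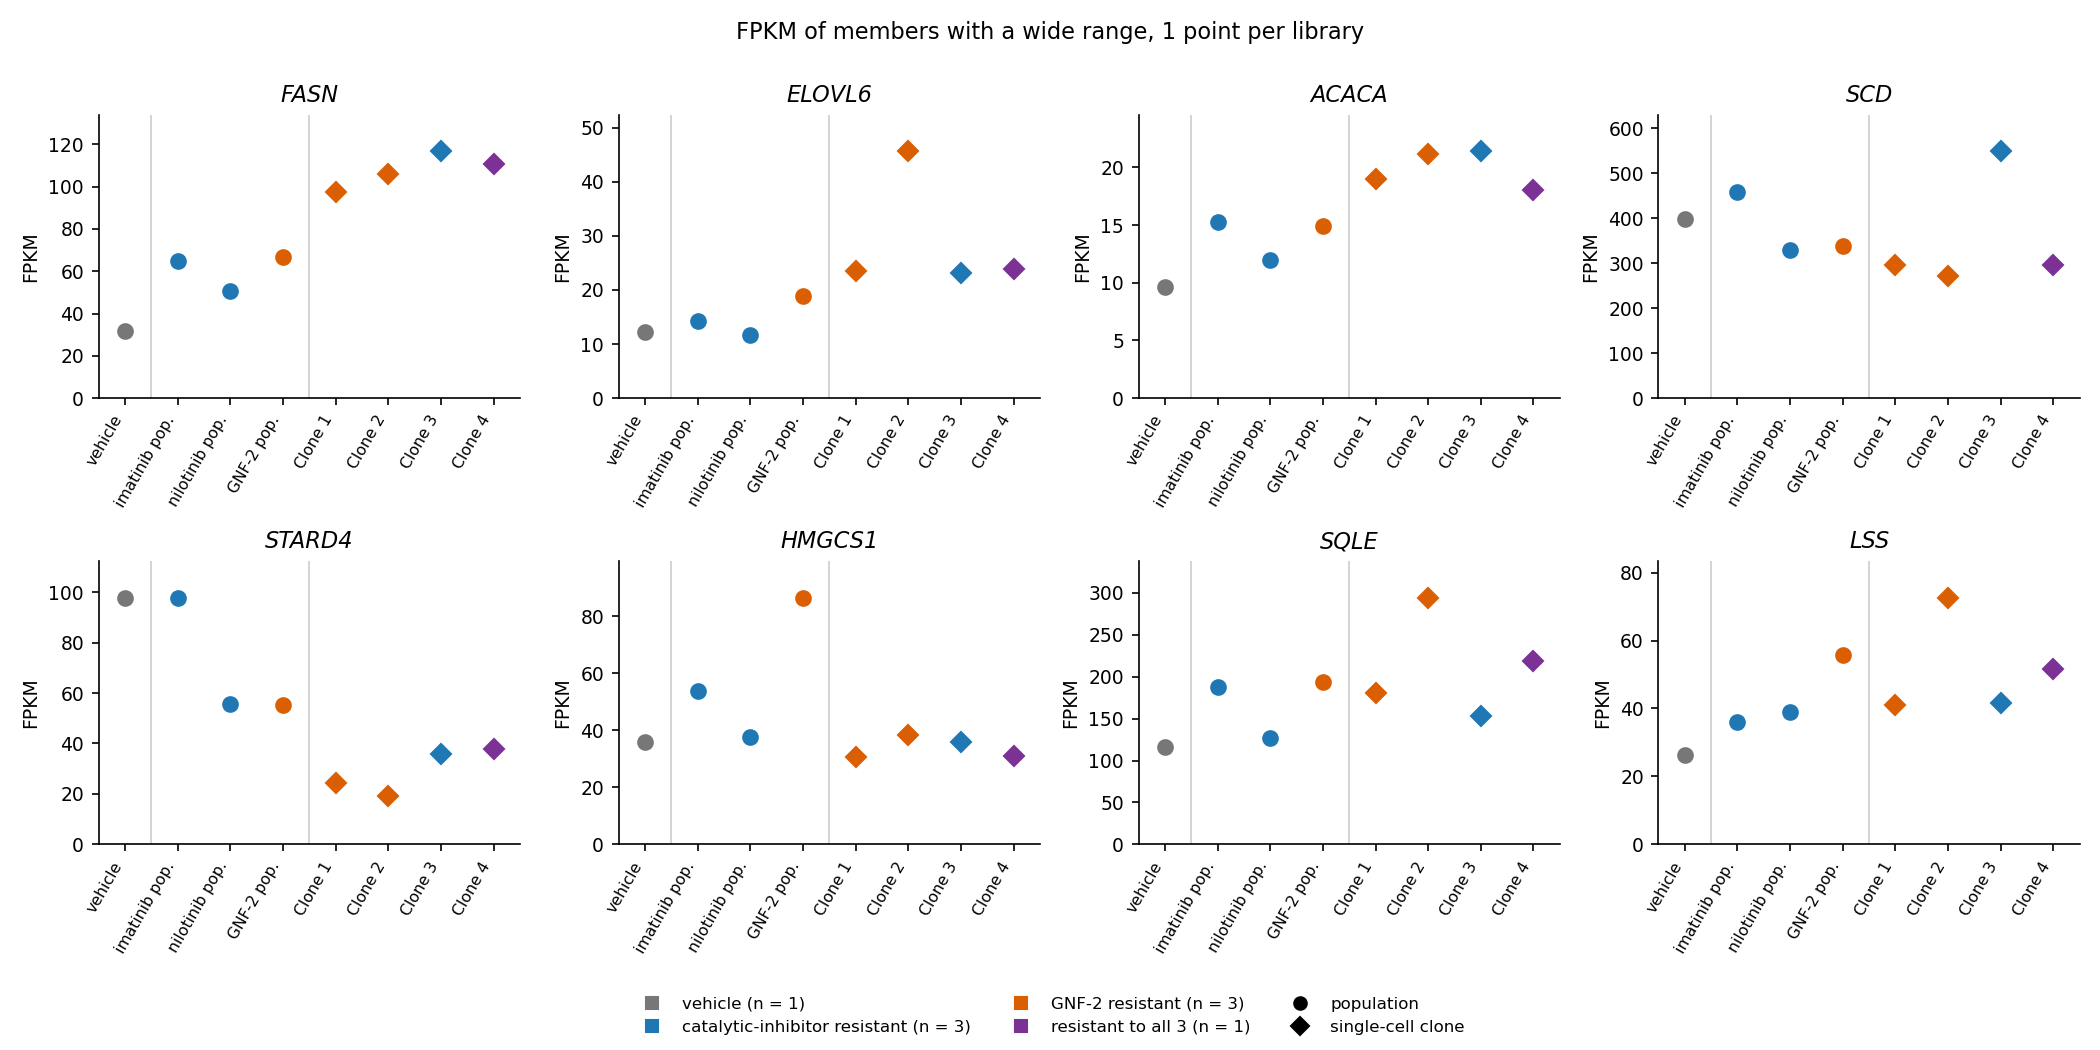
Each panel gives the FPKM of 1 gene (linear axis from 0) in the 8 libraries, 1 point per library, coloured by resistance, with circles for populations and diamonds for clones. FASN, ELOVL6 and ACACA are higher in every clone than in every population, STARD4 is lower in every clone, HMGCS1 peaks in the GNF-2 population, and SCD peaks in Clone 3.

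Mevalonate genes were flatter. HMGCS1, which condenses acetyl-CoA units to HMG-CoA, stood at an FPKM of 35.9 in vehicle and at 53.7, 37.7 and 86.6 in the imatinib, nilotinib and GNF-2 populations. The clones had 30.6, 38.3, 35.8 and 30.9, close to vehicle, and the 3 clones from GNF-2-resistant cells lay well under the GNF-2 population. Against the resistant populations the clones differed by -0.71 (SE 0.26, interval -1.32 to -0.11, adjusted p = 0.129), with overlapping values. MVK, mevalonate kinase, had 12.3 in vehicle, 17.2, 8.81 and 12.0 in the imatinib, nilotinib and GNF-2 populations, and 10.3, 16.5, 11.4 and 9.15 in Clones 1 to 4. IDI1, the isopentenyl diphosphate isomerase, had 124 in vehicle, 168, 101 and 128 in the populations, and 94.9, 112, 97.4 and 120.0 in the clones. Both were highest in the imatinib population, and neither separated clones from populations.

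Other mevalonate members varied less. ACAT2, the thiolase that starts the pathway, was 58.7 in vehicle, 49.9, 39.7 and 39.6 in the catalytic-resistant libraries (imatinib, nilotinib, Clone 3) and 63.6, 48.6 and 69.8 in the GNF-2-resistant ones (GNF-2 population, Clones 1 and 2). PMVK, phosphomevalonate kinase, lay at 22.6 to 26.7 in the populations and 27.8 to 38.1 in the clones, and was lowest in vehicle. MVD, the decarboxylase after it, lay at 24.4 to 30.9 in the populations and 20.0 to 24.3 in the clones (-0.30, SE 0.13, interval -0.60 to -0.01, adjusted p = 0.172). FDPS, which joins isoprenoid units to farnesyl diphosphate, ranged from 141 to 206, highest in the GNF-2 population. GGPS1, which makes geranylgeranyl diphosphate for protein prenylation, was the flattest member (17.5 to 20.7). ACAT2 shares part of its span with TCP1 and IDI1 with WDR37, and the treatment of strand in the counting was not given in the sources used here, so these levels carry that uncertainty.

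Of the sterol steps, SQLE, LSS and TM7SF2 were lowest in vehicle. SQLE, squalene epoxidase, stood at an FPKM of 116 in vehicle, 187, 127 and 193 in the imatinib, nilotinib and GNF-2 populations, and 181, 294, 153 and 218 in Clones 1 to 4. LSS, which closes epoxysqualene to lanosterol, had 26.4 in vehicle, 35.9, 39.1 and 55.6 in the populations, and 41.1, 72.6, 41.6 and 51.8 in the clones. Both peaked in Clone 2. FDFT1, the squalene synthase that precedes them, did not share this order: it was 511 in vehicle, 675 in the imatinib population, and 374 (Clone 2) to 547 in the other libraries.

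TM7SF2, a sterol reductase, had 11.3 in vehicle and 14.4 (Clone 1) to 22.4 (nilotinib population) in the resistant libraries. HSD17B7, a 3-ketosteroid reductase of the pathway, had 17.5 in vehicle, 15.7, 12.8 and 17.3 in the imatinib, nilotinib and GNF-2 populations, and 12.2, 11.9, 9.36 and 7.18 in Clones 1 to 4. Every clone lay below every population (-0.56, SE 0.20, interval -1.03 to -0.09, adjusted p = 0.129). The related pseudogene HSD17B7P2 was lower in the clones too (2.99 ± 1.79, n = 4, against 10.3 ± 2.32, n = 3) and passed the test there (-1.58, SE 0.33, adjusted p = 0.0351). Its call was lost with the population of origin as a block (adjusted p = 0.153), with any library but Clone 2 left out (0.0577 to 0.139), with the resistance group as a covariate (0.0751) and with no filter (0.128), and the difference was -0.95 with a pseudocount of 5. The 2 share sequence, so fragments could have been divided between them and both levels are uncertain. CYP51A1, lanosterol demethylase, ranged from 50.3 to 91.2, NSDHL, a sterol dehydrogenase, from 12.6 to 18.2, and EBP, the sterol isomerase, from 63.1 to 85.6, highest in vehicle. DHCR7, which performs a last reduction to cholesterol, ranged from 88.8 in the nilotinib population to 176 in Clone 3, with 89.2 in Clone 2.

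Among the regulators and carriers, SREBF1, SREBF2 and SCAP were low in vehicle, and INSIG1 and STARD4 were not. SREBF1, whose products favour fatty acid genes, stood at an FPKM of 31.4 in vehicle, 41.0, 47.0 and 44.7 in the imatinib, nilotinib and GNF-2 populations, and 43.5, 45.0, 60.1 and 41.4 in Clones 1 to 4. SREBF2, whose product favours cholesterol genes, had 87.5 in vehicle, 110.3, 99.8 and 127 in the populations, and 120.3, 119, 118 and 133 in the clones. SCAP, their escort, had 24.4 in vehicle, 31.9, 31.1 and 33.4 in the populations, and 43.1, 37.7, 39.4 and 45.4 in the clones. For all 3 genes vehicle was the lowest library. SCAP alone among them separated clones from resistant populations (0.35, SE 0.11, interval 0.10 to 0.60, adjusted p = 0.0886), short of the threshold. SREBF1 overlaps RAI1 in the table, so part of its level may belong to its neighbour.

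INSIG1, the sterol-sensing retention factor and itself an SREBP target, had 109 in vehicle, 121, 62.8 and 90.8 in the imatinib, nilotinib and GNF-2 populations, and 94.7, 95.5, 63.6 and 82.9 in Clones 1 to 4. The lowest values were in the nilotinib population and Clone 3, the highest in the imatinib population, so the catalytic-resistant libraries covered the whole range. STARD4, a carrier that moves sterol between membranes (chromosome 5, 110834021 to 110848233, GRCh37), had the widest range of all members. Its FPKM was 97.8 in vehicle, 97.5, 55.8 and 55.1 in the imatinib, nilotinib and GNF-2 populations, and 24.3, 19.0, 35.9 and 37.9 in Clones 1 to 4. Every clone lay below every population (29.3 ± 9.11, n = 4, against 69.5 ± 24.3, n = 3), with a log2 difference of -1.22 (SE 0.30, interval -1.91 to -0.53) that just missed the threshold (adjusted p = 0.0505). The entry overlaps the uncharacterised LOC100505678, and fragments of the pair could not be separated here.

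Clones against resistant populations was the comparison resting on the most libraries. FASN was the 1 member called of 31 (7.46% of all genes), and 8 had an unadjusted p below 0.05, against 27.1% of all genes. Groups did not overlap for 5 members that were higher in the clones (8.17% of all genes), namely FASN, ELOVL6, ACACA, SCAP and PMVK. They did not overlap for 4 that were lower (18.1% of all genes), namely STARD4, HSD17B7, LPIN1 and MVD. By role, 3 of the 5 higher genes belong to fatty acid synthesis, and none to the sterol steps. Of the 4 lower genes, 1 belongs to each role, LPIN1 being that of the fatty acid and glycerolipid genes. The median log2 difference over the members was 0.006, with 17 higher and 14 lower, against -0.08 over all tested genes, 42.3% of which were higher. Quantile normalization moved the median of all genes to 0.03 and that of the members to -0.02, with 15 higher and 16 lower; rescaling by median ratios gave 0.09, with 19 higher and 12 lower. Ribosomal protein genes were higher in the clones for 18 of 20 (median 0.12) and histone genes for 8 of 9 (median 0.41), and their part in the result was not tested. In bulk RNA, a smaller share of cells expressing a gene and less of its RNA per cell cannot be told apart, and a clone lacks the mixture of lineages that a population can hold.

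**Figure D3:**
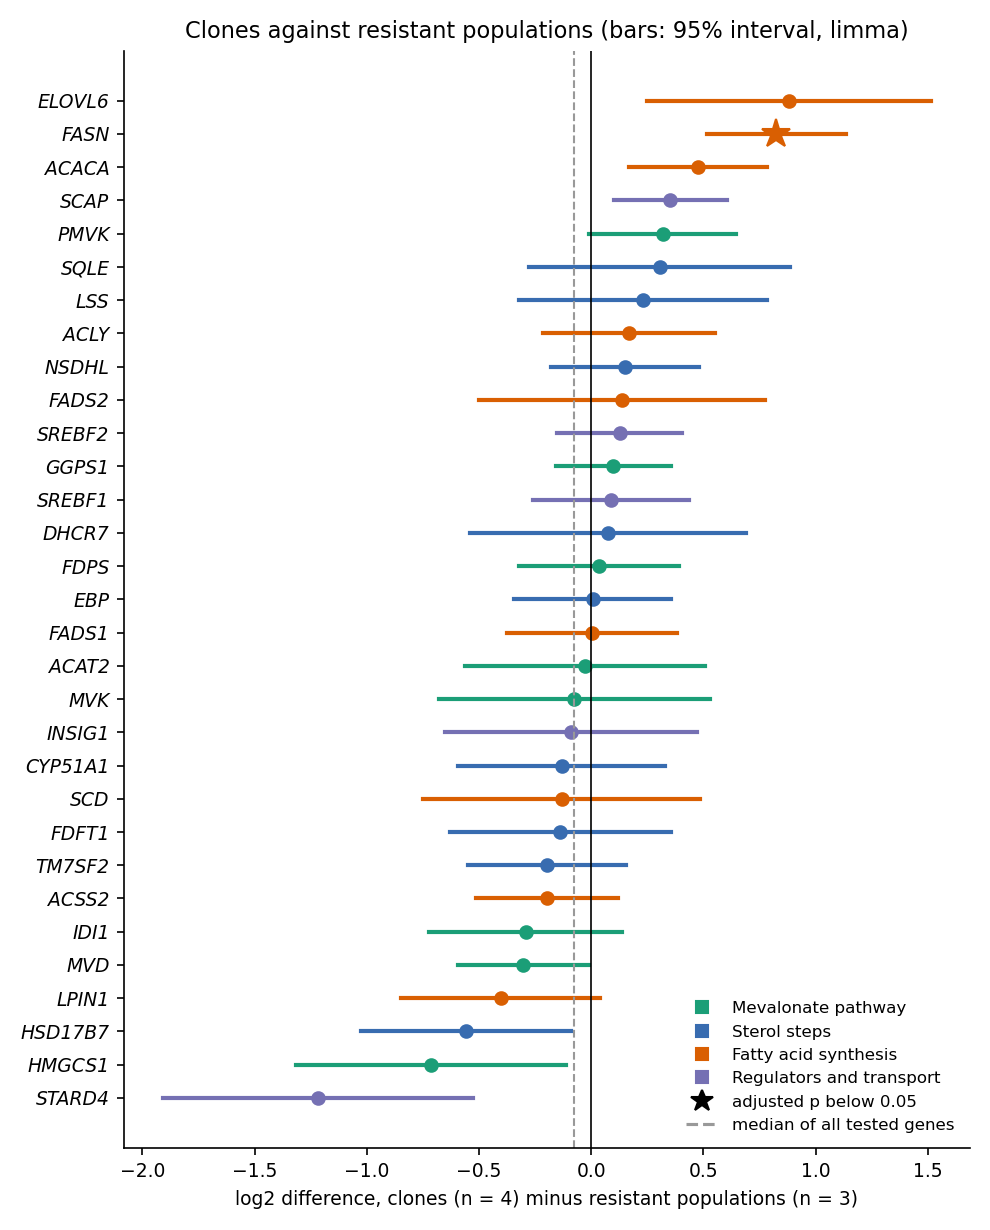
Points give the log2 difference of each member, clones (n = 4) minus resistant populations (n = 3), with 95% limma intervals as bars and colours for the roles; the dashed line is the median of all tested genes (-0.08). FASN, the star, is the member past the threshold, with ELOVL6, ACACA and SCAP beside it at the high end and STARD4 at the low end.

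GNF-2-resistant against catalytic-resistant libraries, the comparison of inhibitor classes, called none of the 31 members with limma, and 0.0338% of all tested genes. At an unadjusted p below 0.05 there were 2, against 4.87% of all genes. ACAT2 was higher, at 60.7 ± 10.9 (n = 3) in the GNF-2-resistant group against 43.1 ± 5.91 (n = 3), a log2 difference of 0.48 (SE 0.18, adjusted p = 0.846). SCD was lower, at 302 ± 33.5 against 446 ± 109.6 (-0.54, SE 0.22, adjusted p = 0.846). Groups did not overlap for 1 member that was higher (6.82% of all genes), SREBF2, at 122 ± 4.60 against 109 ± 8.99 (0.16, SE 0.12, interval -0.14 to 0.46; 0.10 without the nilotinib population). The members' median was 0.12, against 0.01 over all genes, and it was 0.01 without the GNF-2 population. FASN differed by 0.28, with an interval of -0.53 to 1.08, which is too wide to show likeness or difference.

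Against vehicle no member passed limma in either group, and vehicle is a single library that the model assumes to vary like the others. In the GNF-2-resistant group 7 members had an unadjusted p below 0.05 (11.1% of all genes; 0.0929% called). Groups did not overlap for 13 that were higher (33.8% of all genes) and 6 that were lower (26.2%). FASN was higher by 1.45 (SE 0.48, interval 0.31 to 2.59, adjusted p = 0.440), ELOVL6 by 1.09 (SE 0.54), LSS by 1.03 (SE 0.31) and SQLE by 0.90 (SE 0.34). STARD4 differed by -1.70 (SE 0.69), CYP51A1 by -0.45 (SE 0.30), SCD by -0.41 (SE 0.30) and HSD17B7 by -0.34 (SE 0.34). For HSD17B7 the GNF-2 population (17.3) lay only just below vehicle (17.5). With clone or population as a covariate the differences were 0.91 for FASN, 0.57 for ELOVL6, -0.92 for STARD4 and 0.005 for HSD17B7.

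In the catalytic-resistant group 3 members had an unadjusted p below 0.05 (2.69% of all genes; 0.0338% called), which were FASN (1.18, SE 0.48), TM7SF2 (0.72, SE 0.28) and SREBF1 (0.62, SE 0.24), each at an adjusted p of 1.0. Groups did not overlap for 12 that were higher (28.8% of all genes) and 4 that were lower (21.2%). The 4 were STARD4 (-0.74, SE 0.69), HSD17B7 (-0.47, SE 0.34), ACAT2 (-0.45, SE 0.26) and EBP (-0.28, SE 0.23). For STARD4 the imatinib population (97.5) lay only just below vehicle (97.8). Without Clone 3 STARD4 differed by -0.40 and HSD17B7 by -0.29, and with clone or population as a covariate by -0.35 and -0.30. All 9 fatty acid genes had a log2 difference above 0 (median 0.23), a direction shared by 53.0% of all tested genes. Both comparisons use the same vehicle library. Ribosomal protein genes were higher than in vehicle for 20 of 20 in either group (medians 0.41 and 0.37), and their part was not tested.

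The 3 selected populations, at different doses and with 21 days for GNF-2 against 27 for the others, gave these values beside vehicle, with 1 library each and no test. In the imatinib population 27 of 31 members were higher than in vehicle (57.3% of all genes), with a median log2 difference of 0.26, against 0.05 over all genes. After rescaling by median ratios 23 were higher. In the nilotinib population 15 were higher (58.2% of all genes), with a median of -0.03 and of -0.34 for the 9 genes of the sterol steps. In the GNF-2 population 22 were higher (60.7% of all genes), with a median of 0.18, against 0.12 over all genes, and of 0.07 after the same rescaling. Set directly beside the imatinib population, the nilotinib population was lower for 26 of the 31 members (median -0.32), while 53.1% of all genes were higher there. The members farthest apart were INSIG1 (121 against 62.8), MVK (17.2 against 8.81) and STARD4 (97.5 against 55.8). FASN was 2-fold or more above vehicle in the imatinib population (1.06% of all genes were) and in the GNF-2 population (4.23%), and 1.60-fold above it in the nilotinib population.

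Beside its population of origin, Clone 3 had 16 of 31 members higher than the imatinib population (43.5% of all genes), with FASN at 117 against 65.0 and STARD4 at 35.9 against 97.5. Clone 2 had 16 higher than the GNF-2 population (42.9% of all genes), Clone 1 had 11 (38.1%) and Clone 4 had 13 (42.9%). HMGCS1 was 2-fold or more lower in Clones 1, 2 and 4 than in the GNF-2 population (as were 9.56%, 8.81% and 9.06% of all genes). STARD4 was so too in Clones 1 and 2, and HSD17B7 in Clone 4. In Clone 3 STARD4 was likewise more than 2-fold below the imatinib population, at the values above. ELOVL6 in Clone 2 was the 1 member that lay 2-fold or more above its population of origin in any clone (3.74% of all genes in that pair). The median of all genes lay below 0 in each of these 4 pairs, from -0.13 (Clone 1) to -0.07 (Clone 2).

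Of 98 further genes of lipid metabolism, arranged in 8 lists, 84 had a mean FPKM of at least 1. In the clones against the resistant populations none of these was called higher and 2 were called lower (7.46% of all genes called). OXSM, the mitochondrial fatty acid condensing enzyme, fell by 0.77 on the log2 scale (SE 0.12, limma adjusted p = 0.0168). The call was lost without any 1 of the imatinib, nilotinib or GNF-2 populations or Clone 1 (adjusted p from 0.0558 to 0.0753), with the resistance group as a covariate (0.0768) and with the population of origin as a block (0.119). Its FPKM was 12.6 in vehicle, 13.8, 11.5 and 13.1 in the populations, and 6.99, 7.38, 7.62 and 6.44 in Clones 1 to 4, a change opposite in sign to that of cytosolic FASN. HSD17B7P2 was the other, given above.

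Among 14 tested genes of fatty acid elongation, desaturation and activation, 12 had a log2 difference above 0 in the clones (42.3% of all genes). The median of the 14 was 0.25, against -0.08 over all genes. HSD17B12, a ketoacyl reductase of elongation, was the largest of these without overlap, at 249 ± 59.0 (n = 4) against 149.5 ± 7.05 (n = 3), with an adjusted p of 0.0587. Of 12 fatty acid oxidation genes 9 had a difference below 0 (median -0.16), while 42.3% of all tested genes had one above 0. Among them ACADVL, which starts the breakdown of long chains, was 39.8 ± 10.4 against 65.2 ± 8.50 (-0.72, SE 0.20, adjusted p = 0.0723). ECI1 of the same list went the other way without overlap. It had 78.2, 53.1, 73.1 and 47.3 in Clones 1 to 4 against 41.4, 46.5 and 46.7 in the populations. Of 12 glycerolipid genes 9 were above 0 (42.3% of all genes), CHKA (0.57) and DGAT1 (0.55), which makes triglyceride, the largest without overlap. Neither passed.

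Of 14 tested genes of SREBP control and uptake, 5 were higher and 9 lower in the GNF-2-resistant than in the catalytic-resistant group (median log2 difference -0.19), and of 7 of LXR and sterol efflux 4 were higher and 3 lower (median 0.11), none past the threshold. INSIG2, the second retention factor, had 60.8 in vehicle, 39.5, 29.9 and 14.3 in the imatinib, nilotinib and GNF-2 populations, and 11.3 to 13.5 in the 4 clones, so all clones lay below all populations (-0.98, SE 0.30, adjusted p = 0.0901). MYLIP, a ubiquitin ligase induced by the sterol-sensing LXR receptors, had 44.1, 40.6 and 45.0 in the catalytic-resistant libraries and 23.7, 27.0 and 16.6 in the GNF-2-resistant ones (-0.94, SE 0.20, adjusted p = 0.846). Vehicle had 43.8 and Clone 4 had 19.5. ABCA1, a sterol exporter and LXR target, had 15.5, 9.09 and 12.4 against 6.51, 1.99 and 1.49 (-1.77, SE 0.44), and ABCG1, another, 41.2, 20.9 and 61.1 against 14.1, 9.98 and 1.32 (-2.41, SE 0.75), both at an adjusted p of 0.846. ABCA1 was 7.66 in vehicle and 4.44 in Clone 4, and ABCG1 was 20.3 and 31.5, so Clone 4 lay below the catalytic-resistant range for ABCA1 and within it for ABCG1. In all 3 genes the inhibitor classes did not overlap. ABCA1 has 2 entries in the deposited table, and only the 1 with the higher mean FPKM is given. These names, APOE and NR1H3 aside, were taken from the fixed lists by size of difference. Between inhibitor classes none of the 84 genes passed limma, and 9 had an unadjusted p below 0.05 (4.87% of all genes). Groups did not overlap for 13 of the 84 (10.9% of all genes).

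**Figure D4:**
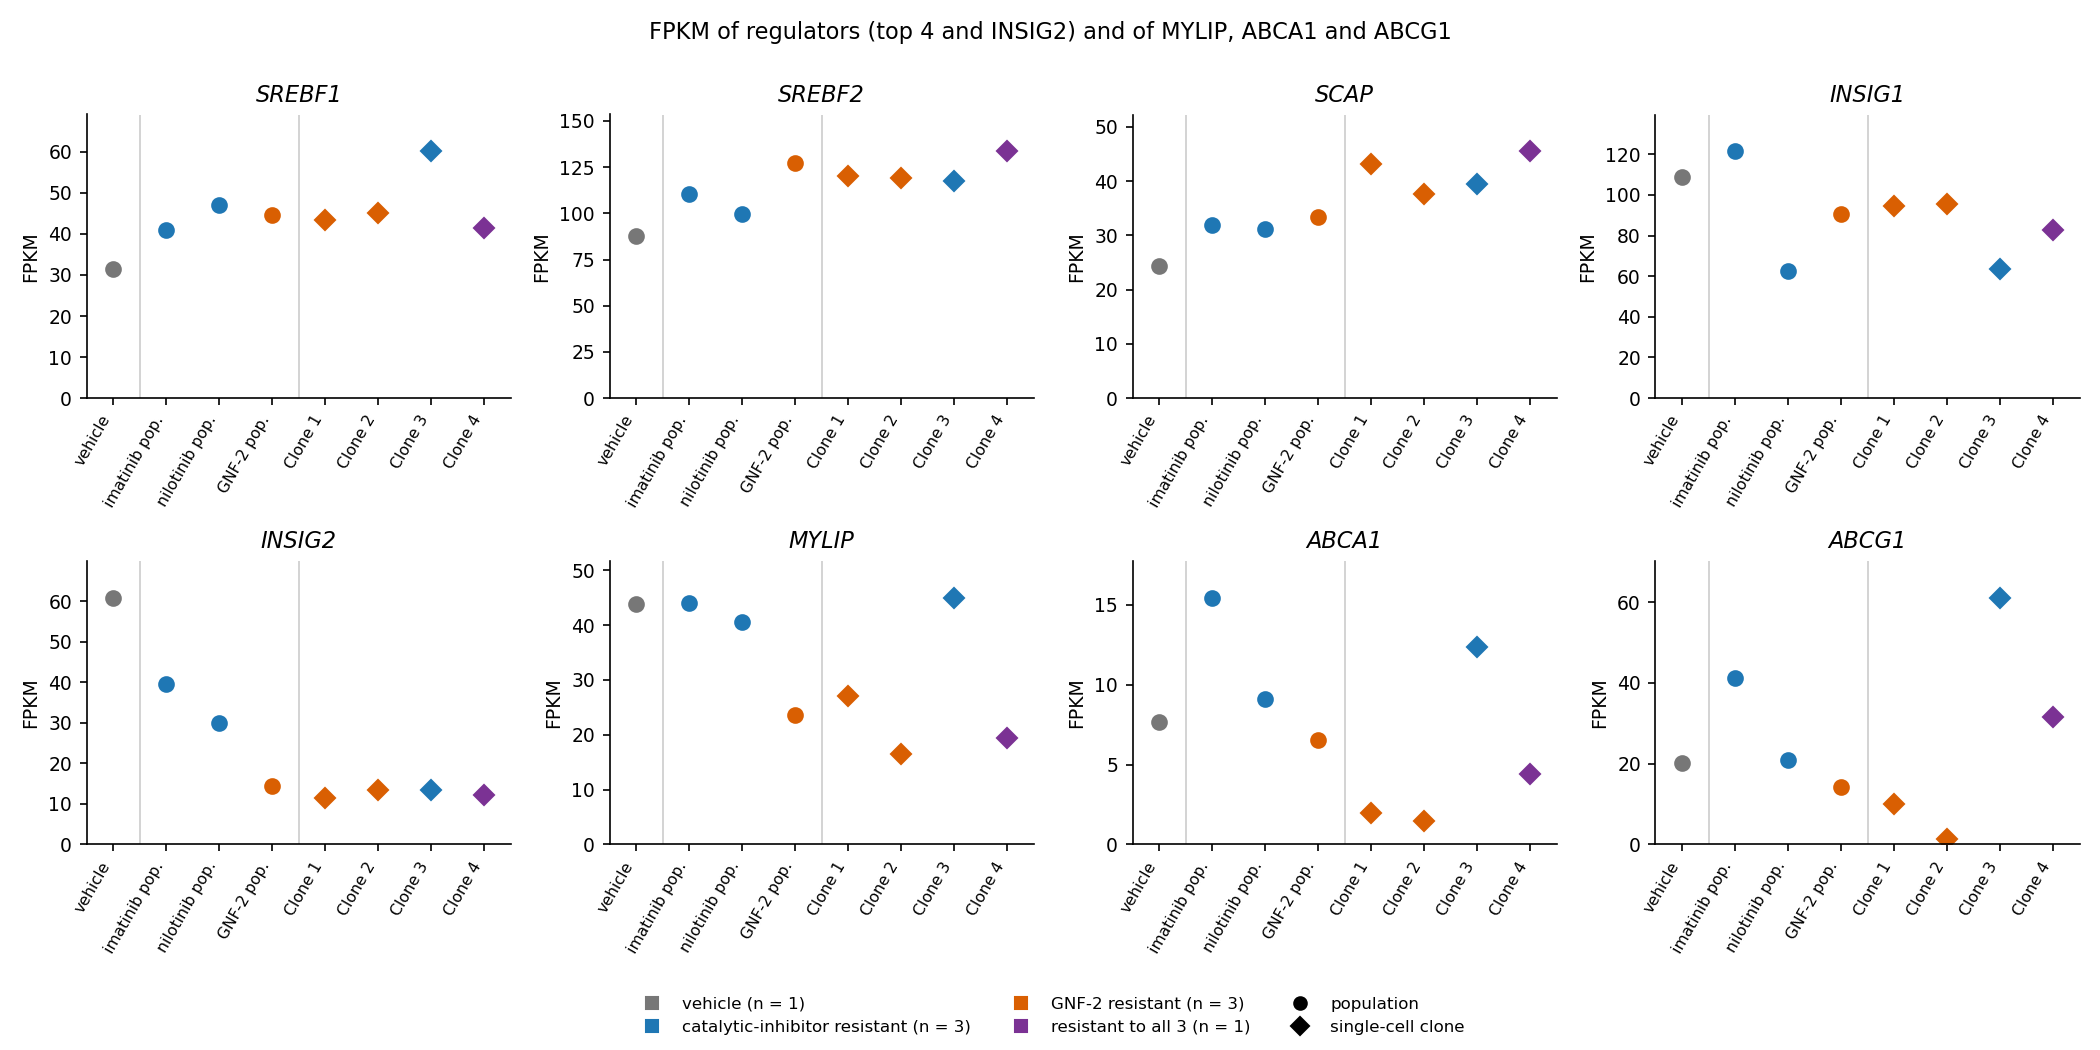
Each panel gives the FPKM of 1 gene (linear axis from 0) in the 8 libraries, 1 point per library, with colours and symbols for resistance and kind of sample. SREBF1, SREBF2 and SCAP are lowest in vehicle, INSIG2 is highest in vehicle and between 11.3 and 13.5 in the clones, and MYLIP, ABCA1 and ABCG1 are lower in each GNF-2-resistant library than in each catalytic-resistant one.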

How the data were processed

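Total RNA of 8 KCL-22 samples was extracted with a column kit and sequenced on Illumina libraries, per the labels. The authors deposited 1 FPKM value per entry and library; TopHat 1.3, Cufflinks 1.3 and GRCh37 are named in the submitters' processing notes. The table's header does not name the unit, which rests on the tool and on the range of the values. Entries with a missing value (70) were left out, and those with a mean FPKM of at least 1 were kept (11843). No read counts were used here, so depth was only estimated and no counting interval is given.

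On log2(FPKM + 1), limma 3.58.1 (R 4.3.3; lmFit, eBayes with a trend) fitted 1 mean per resistance group, or 1 mean per kind (vehicle, resistant population, clone), over all 8 libraries. This leaves 4 or 5 residual degrees of freedom. Contrasts were two-sided, and a gene was called below 0.05 after Benjamini-Hochberg adjustment over all 11843 genes. A fold change on this scale understates that of low genes. Tested on simulated data for the clones contrast (11711 genes), the fit recovered 66% of 2-fold and 91% of 4-fold changes and called 7 unchanged genes. Between inhibitor classes it recovered 42% and 73%, and against vehicle 8% and 53%. The simulated libraries were independent and the changes were placed in well expressed genes only. Clones here descend from populations in the same contrast, so these shares need not hold for these data. Libraries were also compared singly, with no test.

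The 31 members and all lists were chosen with earlier results of these data known. Values in every library are given for members that passed, for the 3 of widest range per role and for SREBF1, SREBF2, SCAP and INSIG1. Per comparison, up to 4 members each way without overlap are named, and up to 3 genes of each other list; a few others were named after their values were seen, and some genes of these lists are not reported here. The alternatives tried were a filter at a mean of 5 or none, a pseudocount of 0.1 or 5, median-ratio and quantile scaling, no trend, a covariate, and each replicate left out. After seeing the data, a fit on genes above 0 everywhere, a fit with vehicle counted among the populations and one with the population of origin as a block were added. Tables were made with pandas 2.3.3 in Python 3.11.15 and figures with matplotlib 3.10.9.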

Additional observations from a re-analysis of the deposited data

Results flagged for a closer look

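Among the 4 clones, 1 library stood far from the other clones for 4 of the 31 members, judged by the gap to the nearest clone as a share of the whole range; chance alone gives such a gap in about 1 in 20 genes, and 6.61% of all tested genes with a range above 0 in the clones had one. ELOVL6 was 45.6 in Clone 2 against 23.1 to 23.9 in the others (share 0.946). SCD was 548 in Clone 3 against 271 to 297 (0.872). PMVK was 38.1 in Clone 1 against 27.8 to 29.3 (0.834), and TM7SF2 was 14.4 in Clone 1 against 18.5 to 19.5 (0.835).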

How the results depend on the processing

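Replicate numbers here only name libraries, but each clone came from a named population. With that population of origin as a replicate block (3 residual degrees of freedom, the nilotinib population adding nothing), clones against resistant populations called 0 members and 13 of all genes, with a member median of -0.033. The counts of 0 members called against vehicle, in either group, and between inhibitor classes held under every alternative run. For clones against resistant populations the count of 1 became 2 with a pseudocount of 5, a mean FPKM of at least 5, median ratios, quantile normalization or only genes above 0; 0 with no filter or the resistance group as a covariate; 5 with vehicle counted among the populations (FASN, STARD4, ACACA, ELOVL6 and SCAP); and 0 to 1 with a library left out. STARD4 passed with a pseudocount of 5 (adjusted p = 0.0469) and ACACA with median ratios (0.0487). Over all alternatives the adjusted p ranged from 0.0137 to 0.122 for FASN and from 0.017 to 0.18 for STARD4. Over all genes that contrast called 883, against 320 with no filter, 238 with the covariate, 1851 with vehicle among the populations, and 125 (without the nilotinib population) to 1100 (without Clone 2). Against vehicle 11 (GNF-2-resistant) and 4 (catalytic-resistant) genes were called, and 253 and 243 with no filter. Member medians ranged with libraries left out from 0.011 to 0.170 between inhibitor classes (lowest without the GNF-2 population), from 0.056 to 0.177 for GNF-2-resistant against vehicle (highest without Clone 1; 0.129 with clone or population as a covariate), and from -0.078 to 0.110 for clones against populations (highest without the imatinib population). Between single libraries, median ratios moved the GNF-2 population against vehicle to 0.071, Clone 1 against the GNF-2 population to -0.021 and Clone 4 against it from -0.102 to 0.002, and quantile normalization moved Clone 3 against vehicle to 0.252. HSD17B7 in GNF-2-resistant against vehicle became 0.005 with the covariate. The cause of these shifts was not tested.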

Other observations

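NPC1, which moves cholesterol out of lysosomes, ranged 10.3-fold over the 8 libraries, from an FPKM of 14.7 to 151, and APOE, a lipid carrier, ranged 10.6-fold, from 2.28 to 24.2.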
